A study of Mus musculus with 9 samples.

Results

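The genes described here are 9 genes of the medium spiny neurons of the striatum: Penk, Pdyn, Tac1, Drd2, Adora2a, Ppp1r1b, Pde10a, Rgs9 and Gng7. They were taken by name, as every non-control probe of the array whose RefSeq accession maps to one of them. This gave 14 of 55681 non-control probes. All 9 genes were among the 30837 genes tested, with a probe kept only where all 3 arrays of some group had it well above background. Of the 14 probes 13 passed, and the remaining probe, the third of Pde10a, was not well above background on any array. The measured genes were well above background on every array of every group, except Pdyn, which was so on 2 of 3 MCAO arrays.

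The study measured brain RNA of adult male C57BL/6 mice on 9 arrays of the 1-colour Agilent type, in 3 groups of 3 arrays. VEGF mice, aged 50, 50 and 53 days, had a transient occlusion of the middle cerebral artery (MCAO) lasting 90 min, and 3 h into reperfusion human VEGF-A165, a recombinant protein at 10 µg/ml, was injected in a volume of 1 µl into the right lateral ventricle. MCAO mice, aged 50, 52 and 53 days, had the same occlusion and an injection of 1 µl of phosphate-buffered saline by the same route. Sham mice, aged 50, 52 and 52 days, had sham surgery, and no injection is stated for them. All brains were taken 24 h after reperfusion, 21 h after any injection, and 200 ng of RNA was labelled per array. Different mice were used in the 3 experiments. The labels name the tissue only as brain, so how much striatum each sample held is not known, and neither is whether 1 hemisphere or the whole brain was used. Occlusion cannot be told apart from the array slide, since the 3 sham arrays lay on 1 slide and the 6 occluded arrays on another, nor from the ventricular injection.

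The striatum is the input nucleus of the basal ganglia, and nearly all of its neurons are GABAergic medium spiny neurons. They form a direct pathway, marked by the D1 dopamine receptor and the peptide genes Pdyn and Tac1, and an indirect pathway, marked by the D2 receptor gene Drd2, the adenosine receptor gene Adora2a and Penk. Both pathways share a cAMP signalling machinery that responds to dopamine and adenosine, to which Ppp1r1b, Pde10a, Rgs9 and Gng7 belong. In rodents the striatum lies in the territory of the middle cerebral artery and is commonly part of the infarct after occlusion of that artery. Several of these genes, the peptide genes above all, are also expressed in other brain regions.

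Between 73.0% and 81.8% of spots were well above background, and the 75th percentile of the signal was 848 to 1830 on VEGF arrays, 923 to 2070 on MCAO arrays and 1420 to 1530 on sham arrays. Levels below are log2 intensities relative to that percentile of the same array, so 0 is the 75th percentile. They are compared between arrays within 1 probe only. On the first principal component of all genes (56.7% of the variance), VEGF array 1 scored 141 and MCAO array 1 scored 130, away from the other 4 occluded arrays (-7.79 to 16.0) and the sham arrays (-104 to -90.1). VEGF array 1 and MCAO array 1 also had the lowest 75th percentiles of all arrays, 848 and 923, where the others had 1420 to 2070. Their shares of spots well above background were the lowest as well, 73.0% and 78.7%. MCAO array 1 was also scanned on another day and processed without spatial detrending, per the file headers. Values of the named genes against sham that change sign, pass the test or move by over 1.5 times without this pair of arrays are given with and without it.

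In the 2 occluded groups combined, each of the 9 genes had a lower mean level than in sham brains, which was so for 58.4% of all genes tested. The median difference over the 9 genes was -1.27 log2 units, beside -0.12 over all genes tested. Gng7, the gene of a G protein gamma subunit, was the 1 gene of the 9 that passed the test, and 1.66% of all genes tested passed in this direction. Gng7 fell to 39.0% of the sham level (log2 difference -1.36 ± 0.30, SE of the fit, 6 occluded and 3 sham arrays, limma adjusted p = 0.0372). This call was lost without any 1 of the 3 sham arrays (limma adjusted p = 0.116 to 0.153), without MCAO array 2 (0.0545) or MCAO array 3 (0.0711), and without the filter on dim probes (0.0505). Between VEGF and MCAO brains none of the 9 genes passed, and 0.00649% of all genes tested passed downwards. In bulk tissue, fewer cells of a type and less RNA per cell cannot be told apart.

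Another feature of these genes lay within the sham group. The highest sham level of all 9 genes was on sham array 2, which was so for 28% of all genes tested. For 6 of the 9 genes, Drd2, Adora2a, Penk, Ppp1r1b, Pde10a and Rgs9, sham array 2 lay more than 1 log2 unit above both other sham arrays, and this was so for 0.739% of all genes tested. This array was singled out after its values were seen. Without it the median difference over the 9 genes was -0.54 for both occluded groups, -0.67 for VEGF and -0.77 for MCAO, and the mean of Drd2 was above sham in each of these comparisons (0.24, 0.35 and 0.14).

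**Figure D1:**
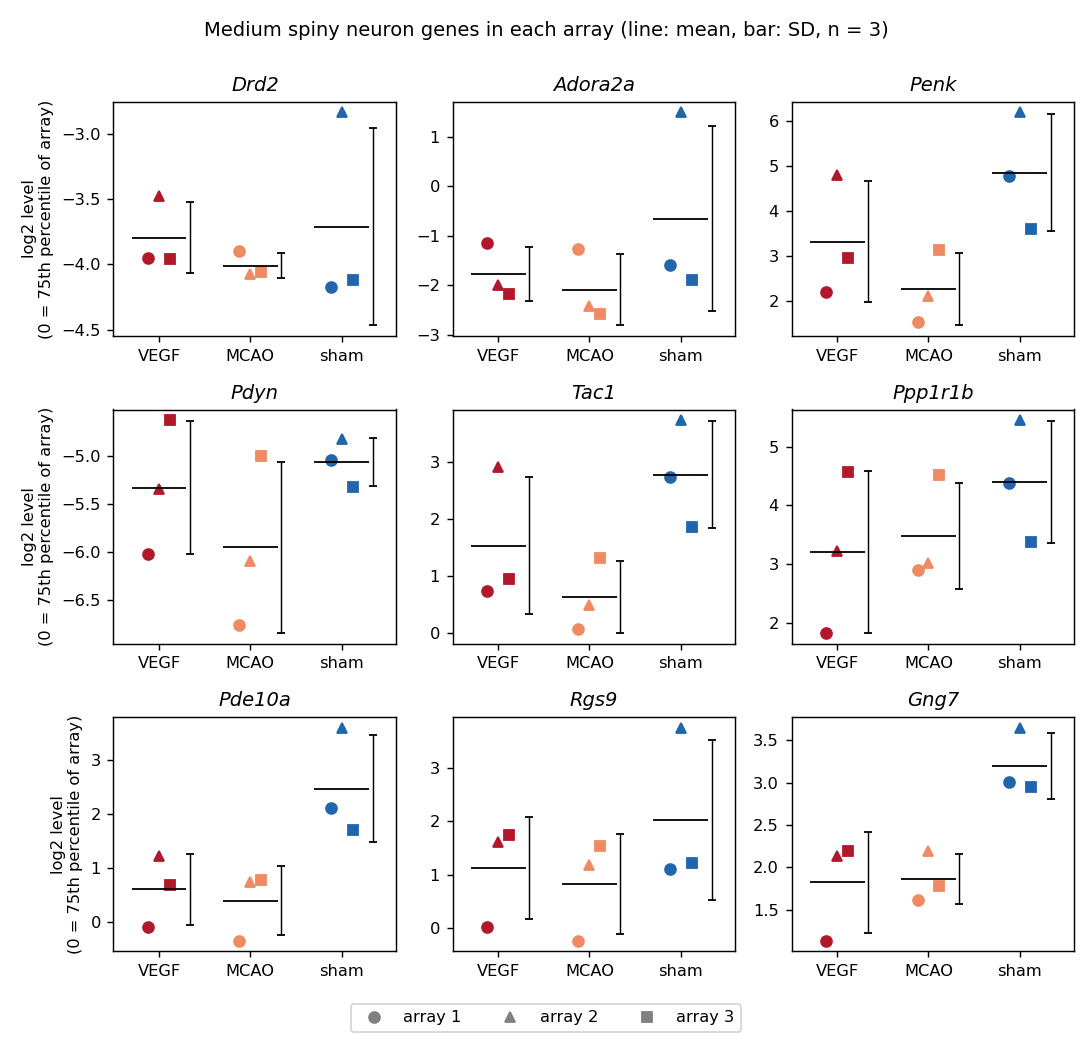
Levels of the 9 genes in each array, on the probe used for the gene. The vertical axes give log2 intensity relative to the 75th percentile of the same array and differ between panels, VEGF, MCAO and sham run from left to right, marker shape gives the array number, horizontal lines are group means and bars the SD of 3 arrays. The triangle of sham array 2 is the highest sham point in all 9 panels, and only in the panels of Pde10a and Gng7 do all 6 occluded points lie below all sham points.

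The mouse loci of the genes whose starts are shown here, and of Penk, which had the largest mean difference of the 9, are given on the GRCm38.p6 assembly of RefSeq, which names the probes here, since the array files give no coordinates. Gng7 spans chr10:80948624-81014925, Pde10a chr17:8525187-8986648, Tac1 chr6:7555061-7562978 and Penk chr4:4133536-4138815. RefSeq start sites were matched for 6 of the 9 genes. The 250 bases before the start are shown for Gng7, which passed the test, for Pde10a, which had the next smallest p, and for Tac1, the gene whose start holds the most copies of the motif searched. The motif was the half-site of the cAMP response element, CGTCA or its reverse complement TGACG, searched on both strands, because the CREB family that binds it acts downstream of the cAMP pathway these genes serve. Capitals mark the half-site, and each sequence runs 5′ to 3′ towards an annotated start of its gene. Gng7 and Pde10a have 2 matched starts each, and for Pde10a only the first is shown. The Pde10a window shown and that of Gng7 start 2 lie inside the spans given above.
Tac1, chr6:7554811-7555060, plus strand: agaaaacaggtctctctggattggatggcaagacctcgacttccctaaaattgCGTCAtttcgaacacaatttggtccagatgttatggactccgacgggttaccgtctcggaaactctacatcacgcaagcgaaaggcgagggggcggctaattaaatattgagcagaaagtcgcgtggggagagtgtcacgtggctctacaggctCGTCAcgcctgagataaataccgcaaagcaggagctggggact
Gng7 start 1, chr10:81014926-81015175, minus strand: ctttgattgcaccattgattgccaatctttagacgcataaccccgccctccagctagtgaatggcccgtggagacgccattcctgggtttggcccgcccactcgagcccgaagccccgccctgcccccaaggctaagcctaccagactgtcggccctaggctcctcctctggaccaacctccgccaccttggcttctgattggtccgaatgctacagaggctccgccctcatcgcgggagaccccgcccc
Gng7 start 2, chr10:81001366-81001615, minus strand: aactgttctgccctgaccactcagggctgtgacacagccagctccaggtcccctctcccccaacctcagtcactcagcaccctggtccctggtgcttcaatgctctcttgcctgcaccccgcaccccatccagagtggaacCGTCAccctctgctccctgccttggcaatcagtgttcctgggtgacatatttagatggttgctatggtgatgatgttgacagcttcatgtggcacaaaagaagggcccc
Pde10a start 1, chr17:8801495-8801744, plus strand: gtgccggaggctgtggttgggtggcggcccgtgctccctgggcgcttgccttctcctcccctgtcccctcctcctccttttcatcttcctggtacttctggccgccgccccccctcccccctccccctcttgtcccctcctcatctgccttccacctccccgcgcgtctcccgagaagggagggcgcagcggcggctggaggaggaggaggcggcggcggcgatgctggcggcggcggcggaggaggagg
The Tac1 window held 2 half-sites, 197 and 43 bases before the start, and the window of Gng7 start 2 held 1, 109 bases before it. It occurred in 2 of 9 windows of these genes and in 17.8% of all 32851 windows. The full element TGACGTCA, which contains both half-sites, was in none of the 9 windows and in 1.55% of all windows. These are matches of letters and say nothing of binding.

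Of the neuropeptide genes, Penk and Tac1 had lower levels in all MCAO than in all sham brains, and Pdyn did not. The same held for 22% of all genes tested, and neither Penk nor Tac1 passed the test. Penk encodes proenkephalin, the precursor of the enkephalins released by indirect pathway neurons. Its level was 2.20, 4.80 and 2.95 in VEGF brains, 1.55, 2.12 and 3.13 in MCAO brains and 4.78, 6.18 and 3.59 in sham brains. All 3 MCAO arrays lay below all 3 sham arrays, while VEGF array 2 lay within the sham range. Penk was -1.53 ± 0.82 log2 units in VEGF against sham (limma adjusted p = 0.270) and -2.58 ± 0.82 in MCAO against sham (limma adjusted p = 0.133), so the MCAO mean was 16.7% of the sham mean without passing the test. The VEGF value was -0.97 without MCAO array 1 and VEGF array 1, and -0.86 without sham array 2.

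Tac1 encodes the precursor of substance P, a tachykinin of direct pathway neurons. Its level was 0.73, 2.90 and 0.95 in VEGF brains, 0.07, 0.50 and 1.31 in MCAO brains and 2.73, 3.73 and 1.86 in sham brains. The order of the arrays was nearly that of Penk: MCAO did not overlap sham, and VEGF array 2 stood 1.59 log2 units above the next occluded array, as it did by 1.68 for Penk. Across the 9 arrays the levels of Penk and Tac1 correlated at r = 0.99, given as a description of arrays that share groups. Tac1 was -1.25 ± 0.67 in VEGF against sham (limma adjusted p = 0.270) and -2.15 ± 0.67 in MCAO against sham (limma adjusted p = 0.128). The VEGF value was -0.77 without sham array 2 and -1.93 without VEGF array 2.

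Pdyn encodes prodynorphin, the precursor of the dynorphins and the other peptide of the direct pathway. Its probe was dim, at -6.02, -5.34 and -4.62 in VEGF brains, -6.77, -6.09 and -4.99 in MCAO brains and -5.04, -4.82 and -5.32 in sham brains. The groups overlapped, and the highest of all 9 levels was on VEGF array 3. Pdyn had the smallest sham SD of the 9 genes, 0.25, and its difference was -0.26 ± 0.48 in VEGF against sham (limma adjusted p = 0.740) and -0.89 ± 0.48 in MCAO against sham (limma adjusted p = 0.311). These were 0.08 and -0.48 without MCAO array 1 and VEGF array 1, and 0.07 and -0.23 with all arrays and normexp background correction. The direction in VEGF thus rested on VEGF array 1 and on the background method. The unscaled intensity of the probe was 13.1 on VEGF array 1 and 8.48 on MCAO array 1, against 30.3 to 62.5 on the other arrays.

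The receptor genes did not separate the groups. Drd2, the D2 dopamine receptor of the indirect pathway, had levels of -3.95, -3.48 and -3.95 in VEGF brains, -3.90, -4.07 and -4.06 in MCAO brains and -4.17, -2.84 and -4.12 in sham brains. Sham arrays 1 and 3 were the lowest of all 9 arrays and sham array 2 the highest, so the mean of the group rests on 1 array. The differences were -0.08 ± 0.35 in VEGF against sham and -0.30 ± 0.35 in MCAO against sham (limma adjusted p = 0.891 and 0.634), and the first was -0.01 without MCAO array 1 and VEGF array 1, and above 0 with quantile normalization (0.05), the deposited value table (0.04) and normexp background correction (0.08).

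Adora2a encodes an adenosine receptor that sits with the D2 receptor on indirect pathway neurons. It stood at -1.15, -1.99 and -2.17 in VEGF brains, -1.27, -2.42 and -2.59 in MCAO brains and -1.58, 1.49 and -1.89 in sham brains. Sham array 2 was 3.07 log2 units above the next sham array, and the other 2 sham arrays lay among the occluded ones. The sham SD of Adora2a, 1.87, was exceeded by 0.136% of all genes tested, and the median sham SD over all genes was 0.18. Its difference was -1.11 ± 0.84 in VEGF against sham and -1.43 ± 0.84 in MCAO against sham (limma adjusted p = 0.404 and 0.338), and -0.04 and -0.36 without sham array 2.

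Of the signalling genes, Gng7 and Pde10a separated all occluded from all sham arrays. Such a separation in the lower direction was found for 14% of all genes tested and for these 2 of the 9 genes. Gng7, whose gamma subunit pairs with the G protein that couples striatal dopamine and adenosine receptors to adenylyl cyclase, stood at 1.13, 2.14 and 2.20 in VEGF brains, 1.61, 2.19 and 1.78 in MCAO brains and 3.01, 3.65 and 2.95 in sham brains. It had the narrowest spread among the signalling genes, with a sham SD of 0.39. Its difference was -1.38 ± 0.34 in VEGF against sham (limma adjusted p = 0.0804) and -1.34 ± 0.34 in MCAO against sham (limma adjusted p = 0.0799). Without MCAO array 1 and VEGF array 1 both passed, at -1.03 (limma adjusted p = 0.0331) and -1.21 (0.0190), where 13.1% and 14.3% of all genes tested passed in this direction. The other, dimmer Gng7 probe gave -1.21 ± 0.24 and -1.36 ± 0.24.

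Pde10a encodes a phosphodiesterase that degrades cAMP and cGMP and is concentrated in medium spiny neurons. Its level was -0.10, 1.21 and 0.68 in VEGF brains, -0.35, 0.74 and 0.78 in MCAO brains and 2.11, 3.60 and 1.70 in sham brains. The lowest sham array was above the highest occluded array, VEGF array 2. Pde10a was -1.87 ± 0.56 in VEGF against sham (limma adjusted p = 0.115), -2.08 ± 0.56 in MCAO against sham (limma adjusted p = 0.0905) and -1.98 ± 0.48 in both occluded groups against sham, 25.4% of the sham level (limma adjusted p = 0.0519, 95% interval -3.08 to -0.87). Without MCAO array 1 and VEGF array 1 the last of these passed at -1.62 (limma adjusted p = 0.0362), among 20.4% of all genes tested that passed downwards. The second measured Pde10a probe gave -1.67 ± 0.48 for VEGF and -1.90 ± 0.48 for MCAO.

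Ppp1r1b encodes a protein phosphatase inhibitor that is phosphorylated in response to dopamine. Its level was 1.82, 3.22 and 4.57 in VEGF brains, 2.90, 3.01 and 4.52 in MCAO brains and 4.39, 5.45 and 3.37 in sham brains. The third array of both occluded groups lay above sham arrays 1 and 3, so the groups overlapped. The differences were -1.20 ± 0.79 in VEGF against sham and -0.92 ± 0.79 in MCAO against sham (limma adjusted p = 0.348 and 0.502), -0.51 and -0.64 without MCAO array 1 and VEGF array 1, and -0.67 and -0.40 without sham array 2.

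Rgs9 encodes a regulator of G protein signalling that speeds the shutdown of D2 receptor signals. It stood at 0.03, 1.60 and 1.74 in VEGF brains, -0.23, 1.17 and 1.53 in MCAO brains and 1.10, 3.74 and 1.23 in sham brains. Apart from array 1 of each occluded group and sham array 2, the arrays lay between 1.10 and 1.74. Its difference was -0.90 ± 0.81 in VEGF against sham and -1.20 ± 0.81 in MCAO against sham (limma adjusted p = 0.482 and 0.398). Without sham array 2 these were -0.04 and -0.34, and without MCAO array 1 and VEGF array 1 they were -0.35 and -0.67. Another probe of the same transcript gave -0.96 and -1.21, whereas the third probe, named for another Rgs9 transcript and dimmer, gave -0.19 ± 0.37 in VEGF and 0.08 ± 0.37 in MCAO against sham, and its highest level was on MCAO array 1.

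**Figure D2:**
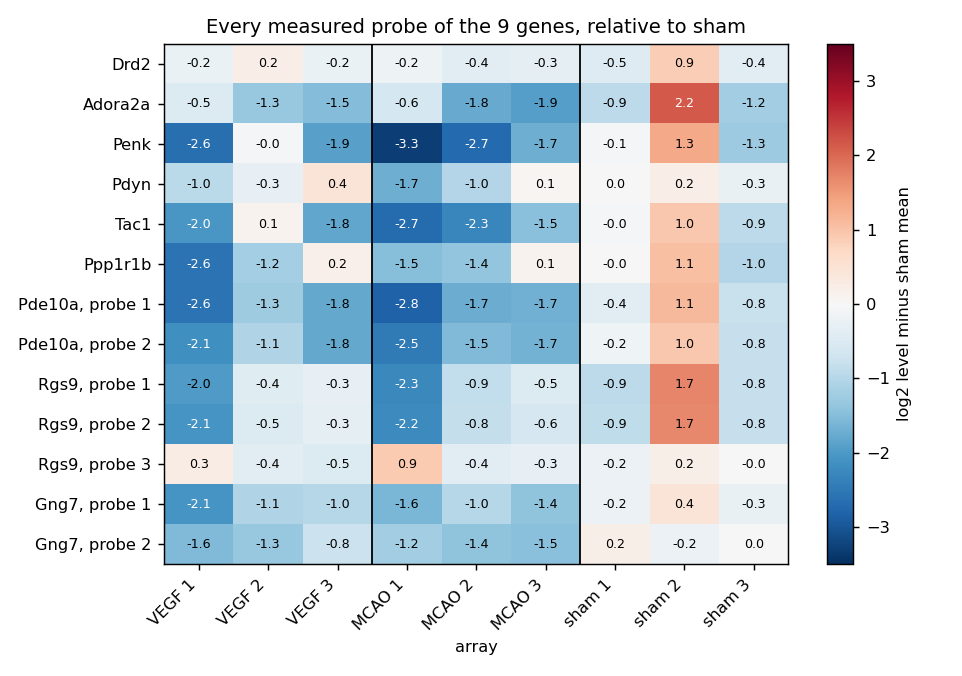
Difference of each of the 13 measured probes (rows) from its sham mean on each array (columns, VEGF, MCAO and sham from left to right), in log2 units, blue below and red above. The column of sham array 2 is above 0 for every probe but the second Gng7 probe, the Pde10a and Gng7 rows are below 0 on all 6 occluded arrays, and the third Rgs9 probe is above 0 on VEGF array 1 and MCAO array 1, where the other 2 Rgs9 probes are below 0.

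The first comparison the design allows is MCAO against sham. All 9 genes had a mean below sham, as did 55% of all genes tested, with a median of -1.34 beside -0.07 over all genes. None passed the adjusted test, which 0.584% of all genes tested passed downwards. Unadjusted p was under 0.05 for 4 genes, Penk, Tac1, Pde10a and Gng7, and downwards for 10.3% of all genes tested. The same 4 genes had groups that did not overlap, which held downwards for 22% of all genes tested.

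For VEGF against sham, which shares its sham arrays with the comparison before, all 9 means were again below sham with the scaling used here, as were 60.2% over all genes, although Drd2 was above 0 under the 3 settings named above and Pdyn (0.07) with normexp background correction. Without sham array 2 Drd2 was above 0, and without MCAO array 1 and VEGF array 1 Pdyn was, which left 8 of 9 means below sham beside 62.4% of all genes tested. The median was -1.20, beside -0.16 over all genes tested. No gene of the 9 passed the adjusted test, which 0.405% of all genes tested passed downwards. Pde10a and Gng7 were the 2 genes with unadjusted p under 0.05 (13.3% of all genes tested) and the 2 with groups that did not overlap (26.4%).

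The comparison of VEGF with MCAO asks what VEGF changed after the occlusion, and here both groups shared a slide. The mean was higher in VEGF for 7 of the 9 genes and for 44.2% of all genes tested, and lower for Ppp1r1b (-0.27) and Gng7 (-0.04). Without MCAO array 1 and VEGF array 1 those were 0.13 and 0.18, and all 9 genes were higher, as were 51.8% of all genes tested. The differences were largest for Penk (1.05 ± 0.82, 95% interval -0.81 to 2.92) and Tac1 (0.90 ± 0.67, -0.62 to 2.43), then Pdyn (0.62 ± 0.48, -0.48 to 1.73). For Gng7 the interval of the difference ran from -0.82 to 0.74 and for Pde10a from -1.07 to 1.48. None of the 9 passed the adjusted test, which 2 of 30837 genes (0.00649%) passed downwards and 0% upwards, and none had unadjusted p under 0.05 (2.48% of all genes tested downwards and 0.418% upwards) or groups that did not overlap (3.82% and 1.97%). With the array number as a block in a fit of these 2 groups alone, 0 of all genes and 0 of the 9 passed. Without VEGF array 2 the differences of Penk and Tac1 were 0.31 and 0.21 and the median over the 9 genes was 0.06, against 0.30 with it. That array was the highest of the 6 occluded arrays for Penk, Tac1, Drd2 and Pde10a, and for 8.61% of all genes tested.

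**Figure D3:**
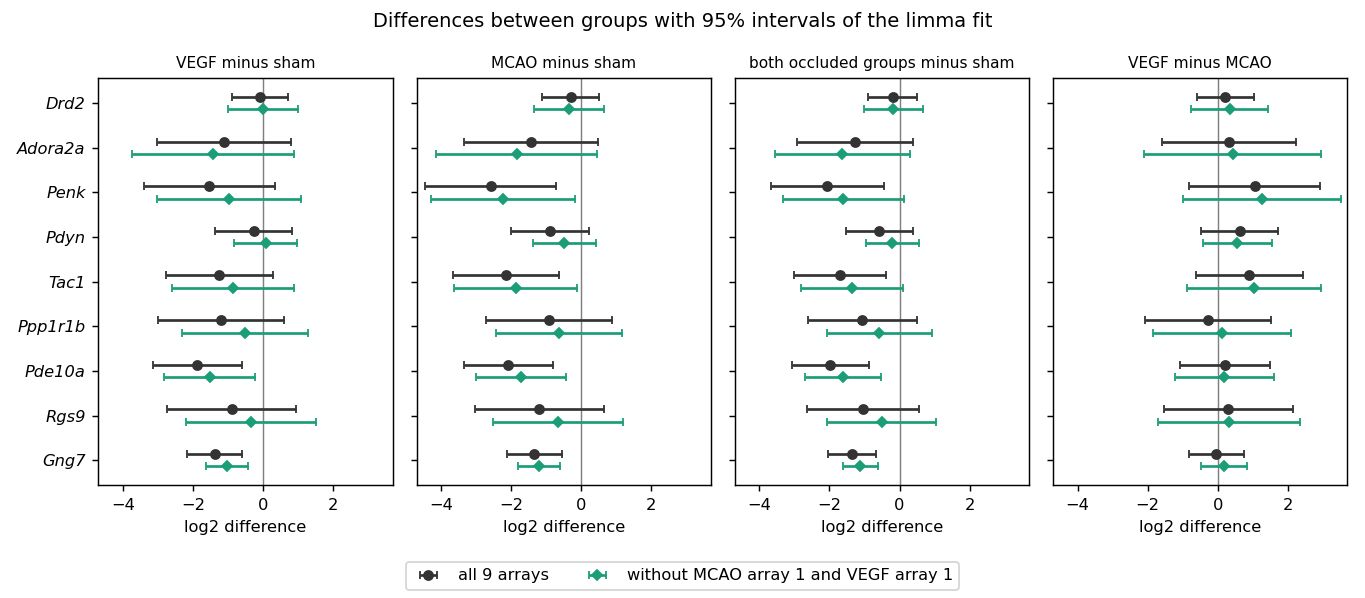
Differences of the 9 genes (rows) in log2 units (horizontal axis) with 95% intervals of the limma fit, for VEGF minus sham, MCAO minus sham, both occluded groups minus sham and VEGF minus MCAO. Black circles use all 9 arrays and green diamonds leave out MCAO array 1 and VEGF array 1. The intervals of Gng7 and Pde10a lie below 0 in the first 3 panels, and all 9 intervals of the last panel hold 0.

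Array by array, 9 of 9 genes were below their sham mean on VEGF array 1, MCAO array 1 and MCAO array 2, and 7 of 9 on VEGF array 2, VEGF array 3 and MCAO array 3. On sham array 3 every gene was below that mean too, and on sham array 1 every gene but Pdyn (0.02). The mean includes the high sham array 2, so these counts do not set occluded apart from sham arrays. Over all genes tested the median on occluded arrays was -0.15 to 0.19. The median of the 9 genes against the sham mean was -2.04, -0.42 and -1.004 in VEGF brains, -1.70, -1.39 and -1.42 in MCAO brains and -0.20, 1.05 and -0.80 in sham brains. Sham array 2 stood apart upwards, and sham array 3 was level with the higher occluded arrays. For 16 general neuron markers the order was another one. Their median was -2.09, -0.52 and -0.27 in VEGF brains, -2.11, -0.61 and -0.39 in MCAO brains and 0.05, -0.01 and -0.05 in sham brains. VEGF array 1 and MCAO array 1 were therefore the low arrays for neuron markers, and sham array 2 was level with the other sham arrays.

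Set against that neuron median on the same array, Pde10a was lower on 6 of 6 occluded arrays, at -1.51 to -0.49 log2 units. On sham arrays 1 and 3 Pde10a was at -0.36 and -0.77 against its sham mean, and the neuron median was 0.05 and -0.05. Pde10a was therefore below the neuron median there too. Penk lay at -0.56, 0.47 and -1.63 relative to it in VEGF brains and at -2.12 to -1.18 in MCAO brains. Rgs9 lay between -0.24 and 0.10 on all 6 arrays. Gng7 lay at 0.02, -0.54 and -0.73 relative to the neuron median in VEGF brains and at 0.53, -0.40 and -1.03 in MCAO brains. Pdyn, Tac1 and Ppp1r1b lay on both sides of it. Adora2a and Drd2 were above it by 1.51 to 1.93 on VEGF array 1 and MCAO array 1. These are descriptions, and no difference between the lists was tested.

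**Figure D4:**
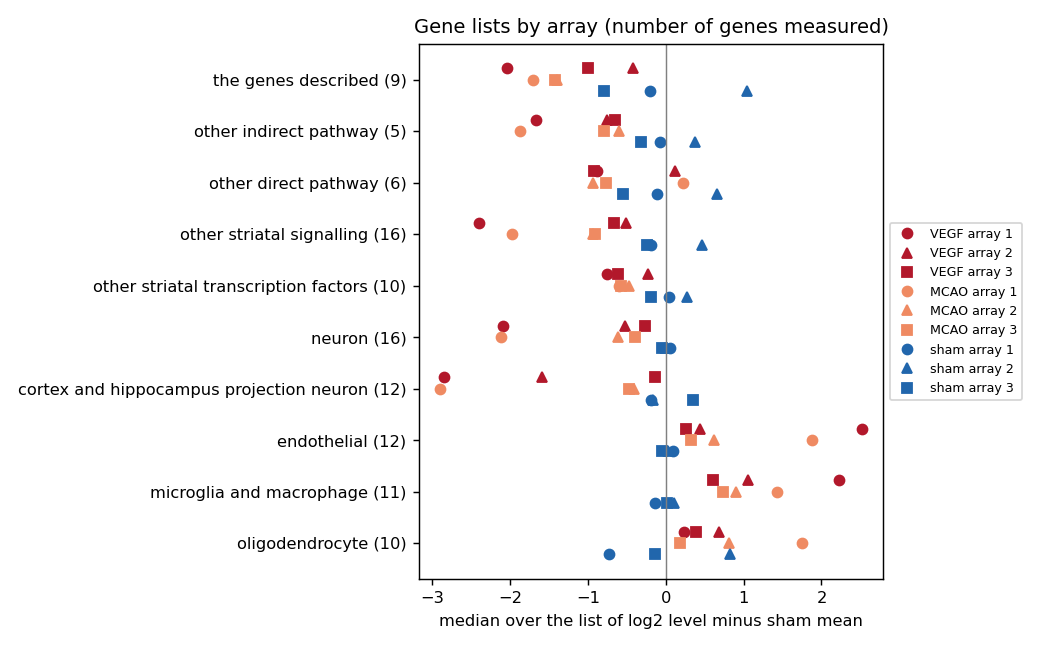
Median over each gene list (rows, number of measured genes in brackets) of the log2 level minus the sham mean (horizontal axis), 1 point per array, with VEGF, MCAO and sham in separate rows of points from top to bottom. Sham array 2, the blue triangle, stands to the right of the other sham arrays for the 9 genes described (1.05) and is at -0.01 for neuron markers, and the circles of VEGF array 1 and MCAO array 1 lie far left for neuron and far right for endothelial markers.

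Other striatal genes were described by 4 lists. These lists, and those below, were chosen with earlier results of these data known. Of 37 measured genes in them (indirect pathway, direct pathway, striatal signalling and striatal transcription factors), 34 had a mean below sham in both occluded groups combined, with a median of -0.93. Over all genes tested 58.4% were lower and the median was -0.12. Of 16 general neuron genes 16 were lower, with a median of -1.03. Of the 37 striatal genes, 2 passed downwards and 0 upwards, beside 1.66% of all genes tested that passed downwards, and 12 passed downwards without MCAO array 1 and VEGF array 1, where 20.4% of all genes tested did. Sham array 2 was the highest sham array for 26 of the 37, and for 28% of all genes tested.

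The other markers of the indirect pathway had a median of -0.95 over 5 genes. Gpr6, an orphan receptor of these neurons, stood at -1.74, -1.69 and -1.48 in VEGF brains, -1.78, -1.19 and -1.69 in MCAO brains and -0.77, -0.09 and -0.91 in sham brains. All occluded arrays were below all sham arrays, as for 14% of all genes tested, and Gpr6 fell by 1.00 ± 0.23 (limma adjusted p = 0.0450). Gpr52, another orphan receptor, was at -1.90 ± 0.56 (limma adjusted p = 0.0816) and was well above background on 1 VEGF, 1 MCAO and 3 sham arrays. The transcription factor gene Sp9 (-0.79) and the kainate receptor gene Grik3 (-0.95) did not pass either, and Grik3 passed at -0.54 without MCAO array 1 and VEGF array 1 (limma adjusted p = 0.0444).

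Among 6 other direct pathway genes the median was -0.41 and none passed. Drd1, the D1 dopamine receptor, stood at -2.58, -2.02 and -1.78 in VEGF brains, -2.97, -1.97 and -1.75 in MCAO brains and -0.76, 0.15 and -1.32 in sham brains. All occluded arrays lay below all sham arrays, as for 14% of all genes tested. The Drd1 difference of -1.53 ± 0.39 did not pass (limma adjusted p = 0.0579) except without MCAO array 1 and VEGF array 1, where it was -1.24 (0.0343). Slc35d3, a transporter family gene, was at -1.61 ± 0.61 and Ebf1, a transcription factor gene, at 0.36 ± 0.48, which was -0.05 without the same arrays.

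Of 16 other striatal signalling genes 16 had a mean below sham, beside 58.4% of all genes tested, with a median of -1.09. None passed with all arrays, against 7 without MCAO array 1 and VEGF array 1, where 20.4% of all genes tested passed downwards. The diacylglycerol kinase gene Dgkb was at -2.05 ± 0.50 (limma adjusted p = 0.0515) and the adenylyl cyclase gene Adcy5 at -0.92 ± 0.31 (limma adjusted p = 0.110). Both passed without MCAO array 1 and VEGF array 1, at -1.49 (limma adjusted p = 0.00207) and -0.92 (0.0423). Of 10 striatal transcription factor genes, with a median of -0.54, Meis2 passed, at 1.16, 1.24 and 1.80 in VEGF brains, 0.76, 1.60 and 1.59 in MCAO brains and 2.58, 2.91 and 2.51 in sham brains. It fell by 1.31 ± 0.25 (limma adjusted p = 0.0260). Bcl11b, which encodes CTIP2, was at -2.13 ± 0.60 (limma adjusted p = 0.0744), Rarb, a retinoic acid receptor gene, at -0.82 ± 0.32 and Rxrg, a retinoid X receptor gene, at -0.41 ± 0.22. Bcl11b passed without MCAO array 1 and VEGF array 1, at -1.47 (limma adjusted p = 0.00427).

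**Figure D5:**
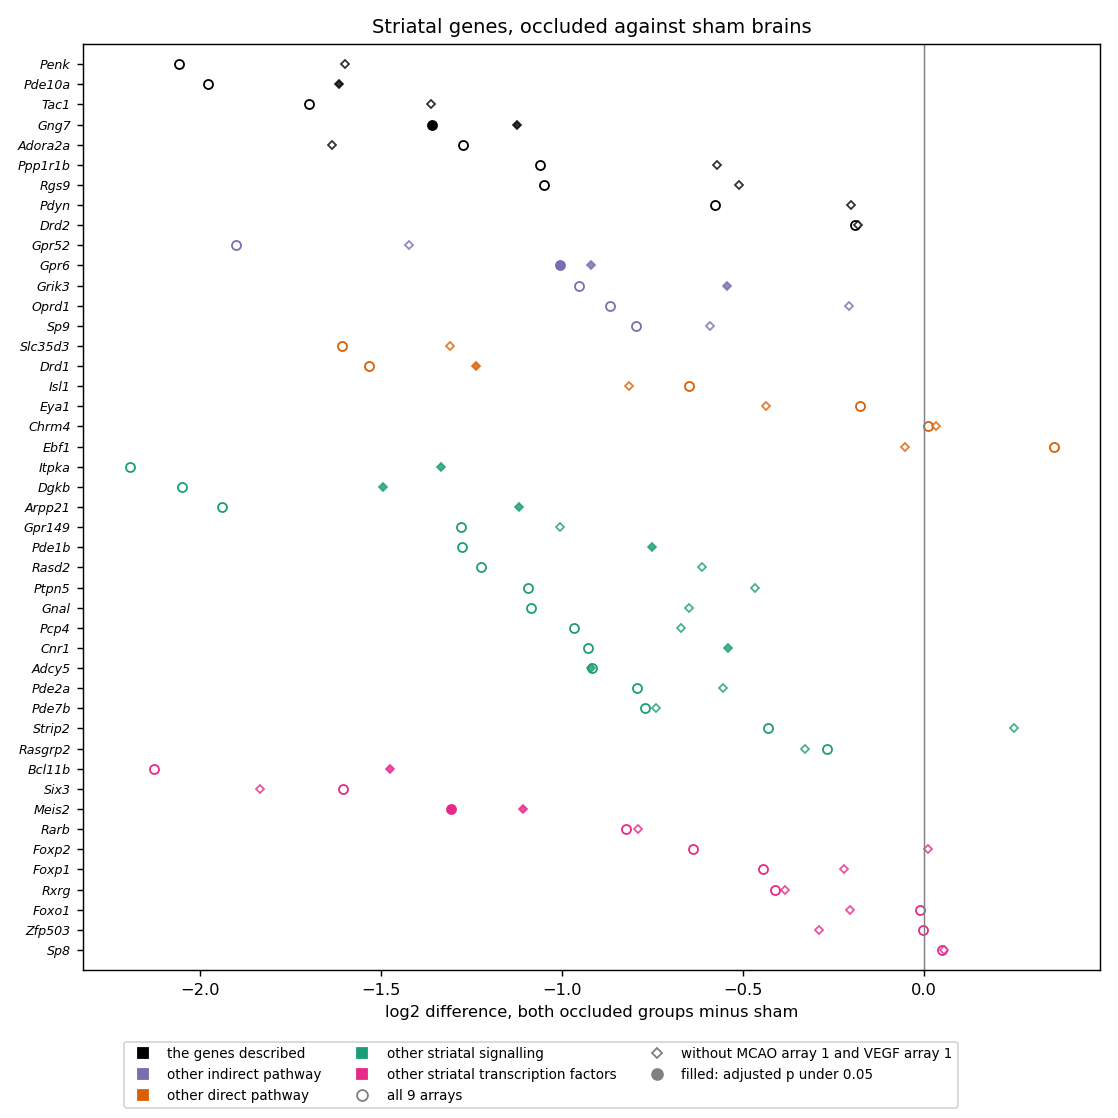
Log2 difference of both occluded groups minus sham (horizontal axis) for the 9 genes and the other striatal genes reported here, coloured by list, with all 9 arrays (circles) and without MCAO array 1 and VEGF array 1 (diamonds). Filled symbols passed limma's test over all genes, which with all arrays were Gng7, Gpr6 and Meis2.

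A list of other opioid and tachykinin genes held receptors, processing enzymes and further peptide precursors. It gave no gene that passed among 11 measured, with a median of -0.83. Without MCAO array 1 and VEGF array 1 Pcsk1 passed (-0.72, limma adjusted p = 0.0202). The prohormone convertase gene Pcsk1, whose enzyme cleaves proenkephalin and prodynorphin, was at -1.01 ± 0.30 (limma adjusted p = 0.0853), the tachykinin receptor gene Tacr3 at -2.56 ± 0.90 (-1.69 without those arrays) and the kappa opioid receptor gene Oprk1, the receptor of dynorphin, at -1.52 ± 0.72. Markers of striatal interneurons and dopamine afferents had a median of -0.66 over 11 genes with none passing, and without MCAO array 1 and VEGF array 1 Nos1 (-1.23, limma adjusted p = 0.0111) and Sst (-0.84, 0.0176) passed. The nitric oxide synthase gene Nos1 was at -0.72 ± 0.34 in VEGF and -1.29 ± 0.34 in MCAO against sham. In both occluded groups combined the somatostatin gene Sst at -0.69 ± 0.23 and Chat, the marker of cholinergic interneurons, at 0.96 ± 0.62 (0.61 without those arrays). In this list sham array 2 (1.37) was again above sham arrays 1 and 3 (-0.67 and -0.42), as it was for 10 oligodendrocyte genes (0.82, against -0.73 and -0.14).

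Marker lists of other cell types had the following values for both occluded groups against sham. Of all genes tested 3.97% passed upwards and 1.66% downwards in this comparison. Without MCAO array 1 and VEGF array 1 these shares were 11.8% and 20.4%. The endothelial list had a median of 0.97 over 12 genes, of which 2 passed downwards and 0 upwards (2 and 5 without MCAO array 1 and VEGF array 1), and stood at 2.52 on VEGF array 1 and 1.88 on MCAO array 1, against 0.26 to 0.61 on the other occluded arrays. The microglia and macrophage list had a median of 1.16 over 11 genes, of which 4 passed upwards and 1 downwards, and stood at 0.61 to 2.23 in VEGF brains and 0.73 to 1.43 in MCAO brains. The cortex and hippocampus projection neuron list had a median of -1.17 over 12 genes, of which 1 passed downwards, and stood at -2.85 and -2.90 on VEGF array 1 and MCAO array 1. The part of these cell types in the differences of the striatal genes was not tested.

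The genes whose pattern over the 9 arrays was most like the mean of the 9 genes were, by Pearson correlation among 17580 other genes with a symbol, Slc35d3 (r = 0.95), Man1b1 (0.95), Drd1 (0.94), Klrg1 (0.94), Fundc1 (0.92), Btn2a2 (0.91), Il20ra (0.91) and Angptl1 (0.91). In all 11 genes were above 0.9. Among the 9 genes themselves, Pde10a (0.95) and Penk (0.93) followed the mean of the others most closely, and Pdyn (0.67) and Adora2a (0.57) least. These correlations describe 9 arrays that share groups, and sham array 2 is an extreme point in them.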

How the data were processed

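RNA was measured on 9 Agilent arrays, 3 per group. The authors' deposited scanner files give an intensity for each of 62976 spots (3671 of them controls). Background subtraction and division by a spatial trend, kept as a ratio near 1, were done in Feature Extraction 10.7.1.1, per the file headers, with no scaling between arrays. The authors also deposited a value table, taken as log2 because each column correlated at 0.998 or more with log2 of the same array's processed intensity. Its columns have medians of 6.98, and how they were scaled and centred is not given in the sources used here.

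Levels are log2 of the processed intensity after subtraction of the array's 75th percentile (over spots that are not controls), averaged over spots of a probe. Symbols were looked up by unversioned accession in RefSeq's gene table (GRCm38.p6) for 26582 of 55681 non-control probes, and other probes kept the array's own name. A probe entered the test where all 3 arrays of some group had it well above background, which left 43921. The brightest kept probe stood for a gene, a choice that mattered for 7936 of 30837 items (17589 with a symbol and 13248 without), all called genes here.

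The test was limma's (version 3.58.1, R 4.3.3, lmFit and eBayes, two-sided) in 1 fit of all 9 arrays without covariates, with p adjusted over all genes by Benjamini-Hochberg at 0.05. The number of arrays limits the precision. For each gene p rests on 1 estimate of the spread within groups, pooled over the 3 groups and drawn towards that of all genes. A difference between slides is not part of it. The fit was also run on simulated data with independent noise for each gene. Those data held no outlying arrays and no slide difference, so that run cannot show how the test behaves with them.

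Same-numbered arrays deviated together between VEGF and MCAO (r = 0.59, 0.22 and 0.56 across genes), so these 2 groups were also fitted with the number as a block. Whether the numbers mark a shared experiment is not stated.

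The 9 genes and the lists were chosen with earlier results of these data known. Named are the 9 genes on every probe, in each of 13 other lists (137 genes, 136 measured, no probe mapped to Cd68) the genes that passed in any comparison and up to 3 others with the smallest p in both occluded groups against sham, and the 8 most alike genes. Values of 1 listed gene are not reported here. Alternatives covered background, scaling, filter, probe rule, block, age, array weights and arrays left out. The probes' own sequences and build were not used here.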

Additional observations from a re-analysis of the deposited data

How the results depend on the processing

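No gene of the 9 changed sign while passing the test in any alternative. Of the values of single genes under all alternatives, 178 of 189 were below 0 in VEGF against sham, 186 of 189 in MCAO against sham and 177 of 180 in both occluded groups against sham, and 162 of 198 were above 0 in VEGF against MCAO. Many of these values repeat the main difference exactly. This holds for the replicate block, only the compared groups, no filter on dim probes, and leaving out an array of the group not compared. Such values could not change sign, so these counts do not measure robustness. With all arrays 845 genes passed in MCAO against sham, 717 in VEGF against sham, 2 in VEGF against MCAO and 1736 in both occluded groups against sham.

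Without MCAO array 1 and VEGF array 1 these counts were 7291, 6514, 3 and 9939, with 1, 1, 0 and 2 of the 9 genes. Without sham array 2 as well, chosen after seeing the data, they were 4488, 3327, 4 and 6641, with 3, 0, 0 and 2 of the 9 genes. Those were Adora2a (-0.77, limma adjusted p = 0.0470), Pde10a (-1.15) and Gng7 (-0.99) for MCAO against sham, and Pde10a (-1.05) and Gng7 (-0.90) for both groups. In that fit Rgs9 (0.51), Drd2 (0.43), Pdyn (0.20) and Ppp1r1b (0.02) were above sham in VEGF. Rgs9 and Drd2 were also above sham in MCAO (0.19 and 0.08) and in both groups (0.35 and 0.25). The median over the 9 genes was then -0.31 for VEGF, -0.77 for MCAO and -0.56 for both groups. Array weights gave 18648, 13413, 6737 and 16732 genes and 8, 2, 3 and 7 of the 9, but their estimate stopped before it converged, with a weight of 39.9 on MCAO array 2 and 0.08 on MCAO array 1. Normexp background correction gave 556, 418, 0 and 1400 genes, and moved the median of all genes in VEGF against sham to -0.02, against -0.16. Signals recomputed from mean, background and trend gave 0 genes in VEGF against MCAO, and quantile normalization gave 4, of which 50% were higher. Age as a covariate gave 1542 genes in MCAO against sham and 2831 in both groups, with 2 of the 9 genes for both groups. Fits of only the compared groups gave 1797, 1206 and 1 genes and 1, 0 and 0 of the 9. The mean over probes gave 852, 724, 2 and 1702 genes and 1, 1, 0 and 2 of the 9. No filter on dim probes gave 1261 genes and 0 of the 9 in both groups against sham.

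Same-numbered arrays correlated at -0.11 to 0.15 in the comparisons with sham, not all over 0.1, so the numbers were not taken to pair those groups. Arrays that correlated best with their own number were 3 of 6 for MCAO and sham, 4 of 6 for VEGF and sham and 4 of 6 for VEGF and MCAO. With the replicate block 1188, 932, 2 and 2464 genes passed, with 2, 1, 0 and 2 of the 9. The block in a fit of VEGF and MCAO alone gave 0 genes and 0 of the 9.

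With 1 array left out, 189 to 2609 genes passed in MCAO against sham, 150 to 3654 in VEGF against sham, 1 to 3 in VEGF against MCAO and 338 to 4296 in both groups against sham, with 0 to 1, 0 to 1, 0 and 0 to 2 of the 9 genes. Each sham array lowered the first counts when left out (189 to 239 and 150 to 190), as did MCAO arrays 2 and 3 for MCAO against sham (513 and 356). Without MCAO array 1 they were 1295 and 3654, and without VEGF array 1 the first was 2609. For both groups the count was 338, 470 and 404 without sham array 1, 2 and 3, 4296 without MCAO array 1, and 1047 and 970 without MCAO arrays 2 and 3. Of the 9 genes 2 passed for both groups without MCAO array 1 or without VEGF array 2, where 4296 and 1593 of all genes passed. The cause of these changes was not tested.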

Other observations

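Marker genes outside the striatum gave the following values for both occluded groups against sham, with limma's test over all genes. Of the microglia and macrophage list, P2ry12, a purinergic receptor of resting microglia, fell by 2.52 ± 0.17 (limma adjusted p = 0.000255). Cd14, a receptor for bacterial lipopolysaccharide, rose by 5.19 ± 0.69 (0.00562), the adaptor gene Tyrobp by 2.17 ± 0.46 (0.0341) and the leukocyte phosphatase gene Ptprc by 1.81 ± 0.31 (0.0155). Msr1, a macrophage scavenger receptor, passed upwards, and no sham array had it well above background. Aif1 (1.16), Ctss (1.49) and Tmem119 (-0.52) did not pass. Of 10 astrocyte genes, with a median of 0.20, the reactive astrocyte genes Gfap (1.91 ± 0.34), Vim (3.69 ± 0.41) and Lcn2 (6.79 ± 0.29) rose, and Gja1, Aqp4 and Aldh1l1 did not pass (-0.71 to 0.23). Of the endothelial list, the transporter gene Slco1a4 (-1.94 ± 0.22) and Itm2a (-1.79 ± 0.31) fell, while Esam, Ly6c1 and Emcn (1.88 to 2.39) did not pass.

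Of 16 neuron genes, 16 had a mean below sham, beside 58.4% of all genes tested, with a median of -1.03. None passed, and 7 passed downwards without MCAO array 1 and VEGF array 1, where 20.4% of all genes tested did. Gap43 was at -1.24 ± 0.30, Tubb3 at -1.47 ± 0.37 and Syp at -1.47 ± 0.52. Without those arrays these 3 passed, at -1.01, -1.10 and -0.88. Of the cortex and hippocampus list Rasgrf2, a guanine nucleotide exchange factor gene, fell by 0.69 ± 0.14 (limma adjusted p = 0.0302), and Camk2a, Nrgn and Neurod6 (-2.41 to -1.76) did not pass. No gene of the 10 oligodendrocyte genes (median 0.80) or the 6 choroid plexus genes (median -0.96) passed, including Cldn11 (1.22), Mobp (1.44), Olig2 (0.82), Aqp1 (1.88), Kl (-1.38) and Kcnj13 (-1.24). The choroid plexus median was -3.32, 1.04 and -2.81 in VEGF brains, 1.63, -0.80 and -0.23 in MCAO brains and 0.55, 0.41 and -0.86 in sham brains. Without MCAO array 1 and VEGF array 1, limma's test was also passed by Esam (1.75), Ly6c1 (1.36), Emcn (1.34), Aif1 (0.82), Ctss (0.94), Tmem119 (-0.67), Gja1 (-1.02), Camk2a (-1.11), Mobp and Aqp1 (1.69), while Neurod6 (-1.32), Nrgn (-1.09), Aqp4 (-0.12) and Aldh1l1 (0.35) did not pass. Between VEGF and MCAO no gene of any list passed.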
